A study of Rattus norvegicus with 6 samples.

Results

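The 9 miRNA strands described here belong to families known from neurons and glia, though not each is the strand described in brain. They were followed in heart fibroblasts and in the vesicles these cells released: rno-miR-9a-5p, rno-miR-9a-3p, rno-miR-124-3p, rno-miR-128-3p, rno-miR-137-3p, rno-miR-137-5p, rno-miR-218a-5p, rno-miR-218a-1-3p and rno-miR-219a-1-3p (the prefix rno-, for rat, is left out from here on). They were chosen by name, and 9 of the 728 mature miRNAs counted in the series were these strands. Small RNA was sequenced from fibroblasts of Wistar rat hearts (age 1 to 2 days), isolated by enzymatic digestion, and from exosomes (small membrane vesicles) of their medium. The labels give both groups 1 culture protocol, growth with 10% serum and then 48 h with 1% exosome-depleted serum; exosomes were collected from that medium by centrifugation, filtration and ultracentrifugation. Each group had 3 libraries: exosome libraries 1 and 2 and another whose column carried no number (the unnumbered library), and fibroblast libraries 1, 2 and 4. No genotype or treatment other than the source of the RNA separated the groups. The labels do not say that libraries of a group came from separate cultures, so the spread that the p-values rest on is that among these libraries and may be technical. The test of single miRNAs pools this spread over miRNAs, so a strand's p-value does not rest on the spread of its own values alone. Libraries of medium that had met no cells were not analysed here.

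A miRNA is cut from a hairpin whose arms give a 5p and a 3p strand; one of them is usually kept in the Argonaute protein, where bases 2 to 8 (the seed) pair with messenger RNAs. In the brain, miR-9 is known from neural progenitors, miR-124 and miR-128 from neurons, miR-137 from neuronal maturation, miR-218 from motor neurons and miR-219 from myelinating oligodendrocytes. miR-218 is not restricted to neural cells; its genes lie within the axon guidance genes Slit2 and Slit3, which other tissues use too.

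Exosome libraries were shallow, with 113129 to 120224 miRNA counts, against 2439559 to 12508651 in fibroblasts. miR-873-3p, which the neural strands share at most 5 consecutive bases with where their sequences are known here, took 84.9% to 90.1% of the exosome counts and 0.391% to 2.37% of the fibroblast counts. Shares are therefore also given without it, with 11825 to 18164 exosome counts then left. This step raises the exosome share of every other miRNA and hardly moves its fibroblast share. On the log2(CPM + 1) scale, where CPM is the count relative to the library total, Pearson's r over miRNAs (not independent of each other) ran from 0.63 to 0.77 for exosome pairs and from 0.91 to 0.96 for fibroblast pairs. The unnumbered exosome library stood nearer to the fibroblasts (r = 0.63 to 0.69) than exosome libraries 1 and 2 did (0.42 to 0.55). The 8 fibroblast and mesenchymal marker miRNAs held 52.4% to 54.4% of fibroblast counts without miR-873-3p and the 6 cardiomyocyte markers 0.00810% to 0.0172%. In the exosomes these lists held 1.19% to 13.7% and 0.0254% to 0.0771%.

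The mature sequences of 8 of the 9 strands were matched by name in RefSeq (build GRCr8); that of miR-124-3p is not shown. They are printed because the strands of a hairpin differ in seed, so that a change of one strand is not a change of its partner. Capitals mark the seed, and no other miRNA of the series with a sequence in the RefSeq table had the seed of any of these 8.
miR-9a-5p: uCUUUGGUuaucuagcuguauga
miR-9a-3p: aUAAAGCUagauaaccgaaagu
miR-128-3p: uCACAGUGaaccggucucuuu
miR-137-5p: aCGGGUAUucuuggguggauaa
miR-137-3p: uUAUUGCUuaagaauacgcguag
miR-218a-5p: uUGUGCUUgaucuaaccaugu
miR-218a-1-3p: aAACAUGGuuccgucaagcac
miR-219a-1-3p: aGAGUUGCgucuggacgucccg

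The hairpins of the 3 strands that rose in exosomes are shown with their mature strands in capitals, to place both strands in one precursor. The miR-9a strands come from 3 hairpin copies (Mir9-1, Mir9-2 and Mir9-3) whose mature strands are identical, so their reads cannot be assigned to a copy; Mir9-1 is printed. miR-218a-5p is shared by Mir218-1, inside Slit2, and Mir218-2, inside Slit3, whereas miR-218a-1-3p comes from Mir218-1 alone. miR-128-3p is likewise shared by Mir128-1, inside R3hdm1, and Mir128-2, inside Arpp21.
Mir9-1: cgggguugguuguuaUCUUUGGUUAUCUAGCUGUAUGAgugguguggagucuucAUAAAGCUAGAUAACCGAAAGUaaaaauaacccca
Mir137: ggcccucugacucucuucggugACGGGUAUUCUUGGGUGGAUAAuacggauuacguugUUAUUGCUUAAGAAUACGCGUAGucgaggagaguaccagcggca
Mir218-1: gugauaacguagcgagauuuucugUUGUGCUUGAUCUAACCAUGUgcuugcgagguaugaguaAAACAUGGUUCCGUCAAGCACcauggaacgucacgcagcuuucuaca

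The question was which of these strands were richer or poorer in exosomes than in the cells, relative to all miRNAs. miR-9a-5p, miR-218a-1-3p and miR-137-5p were higher in exosomes, 0 strands were lower and 6 did not pass the test. Over all 698 tested miRNAs, 11.3% were called higher and 18.6% lower, 29.9% in either direction (edgeR, quasi-likelihood test, Benjamini-Hochberg adjusted p under 0.05). The 9 strands had a median log2 fold change of 0.69, against -0.15 over all that were tested. The median of the 9 (in brackets that over all tested miRNAs) was 0.057 (-0.20) without the unnumbered exosome library. It was 0.13 (-0.18) with the replicate number as a block, 0.0058 (-0.57) with total counts and -0.35 (-0.96) with library sizes from all reads. With library sizes summed without the 5 most abundant miRNAs it was 2.10 (1.34). TMM-scaled CPM (after edgeR's scaling between libraries) of the groups did not overlap for 2 of the 9, miR-9a-5p and miR-218a-1-3p, and for 39.3% of all tested miRNAs. The 9 strands were detected in each of the 6 libraries and passed the count filter. One exosome read was worth 8.32 to 8.84 CPM, above the filter's cutoff of 7.81 CPM, so that a single read sufficed there. miR-9a-3p and miR-137-3p reached this cutoff in 3 exosome but only 2 fibroblast libraries, so that they entered the test through the exosomes.

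**Figure D1:**
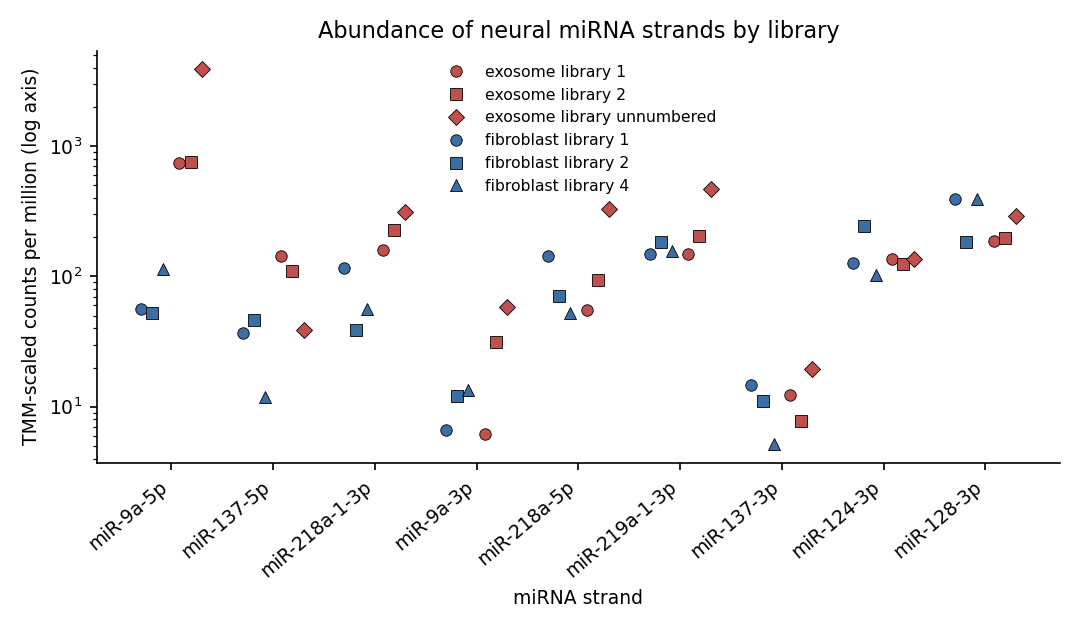
TMM-scaled CPM (log axis) of the 9 strands in each of the 6 libraries, ordered by fold change; marker shape gives the library number and colour the group. The exosome values of miR-9a-5p lie between 737 and 3881, above all fibroblast values, while those of miR-124-3p lie within the fibroblast range.

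miR-9a-5p, the strand that acts in neural progenitors, was the most abundant of the 9 in exosomes. It had 119, 97 and 200 counts in exosome libraries 1, 2 and unnumbered and 346, 1305 and 220 counts in fibroblast libraries 1, 2 and 4. Every exosome value lay above every fibroblast value on the CPM scale, and the unnumbered library was the highest.

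As a share of all miRNA counts, miR-9a-5p made up 0.0990% (95% Clopper-Pearson interval 0.0820 to 0.118), 0.0857% (0.0695 to 0.105) and 0.168% (0.146 to 0.193) in the exosome libraries. The fibroblast shares were 0.00543% (0.00487 to 0.00603), 0.0104% (0.00987 to 0.0110) and 0.00902% (0.00787 to 0.0103). Such intervals hold the counting error of a single library and not the spread between libraries. PCR copies of a molecule are counted as separate reads, so the intervals may be too narrow even for that error. Without miR-873-3p in the total, the exosome shares became 0.655%, 0.677% and 1.69%.

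On the TMM-scaled level miR-9a-5p reached 737, 760 and 3881 CPM in exosomes and 56.1, 52.5 and 114 CPM in fibroblasts, a mean of 1793 ± 1809 against 74.1 ± 34.4 (SD, n = 3 each). The large exosome SD came from the unnumbered library, whose TMM factor of 0.433 was the lowest of the 6. The test rests on a spread pooled over miRNAs, not on this SD alone. The fitted difference was 24.1-fold (log2 4.59, SE 0.93, edgeR adjusted p = 2.2e-05), the seventh highest log2 fold change of all tested miRNAs. Ranked by raw count within a library, miR-9a-5p stood at places 27, 24 and 11 in the exosomes and at places 347, 398 and 241 in the fibroblasts.

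The call of miR-9a-5p held under 15 of 15 other settings (edgeR or DESeq2 adjusted p from 1.1e-10 to 0.0022), but its size did not. It was 9.34-fold without the unnumbered exosome library, 14.2-fold with total counts, 10.5-fold with library sizes from all reads and 61.0-fold when library sizes were summed without the top 5 miRNAs.

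Its partner miR-9a-3p, the less abundant strand of the same hairpins, had 1, 4 and 3 counts in exosomes and 41, 299 and 26 in fibroblasts. The exosome CPM of 6.19, 31.3 and 58.2 enclosed the fibroblast CPM of 6.64, 12.0 and 13.5. Its log2 fold change was 1.32 (SE 0.98, edgeR adjusted p = 0.346), and 8 exosome reads in all limit what could be detected.

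miR-218a-1-3p, the strand opposite miR-218a-5p in the Slit2 hairpin, had 26, 29 and 16 exosome counts against 716, 969 and 109 in fibroblasts. Its exosome CPM of 161, 227 and 310 lay above its fibroblast CPM of 116, 39.0 and 56.4, although exosome library 1 and fibroblast library 1 were close. The difference was 3.23-fold (log2 1.69, SE 0.62, edgeR adjusted p = 0.024).

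That call was lost without each of 5 single libraries, while the log2 value was 1.38 or more there, against 1.69 as reported. The adjusted p was 0.054 and 0.206 without exosome library 1 and 2, 0.078 without the unnumbered one, and 0.071 and 0.053 without fibroblast library 2 and 4. With total counts it was 0.280, with library sizes from all reads 0.410, and 0.057 with the reads behind the authors' normalized table; over all settings it ranged from 7.4e-05 to 0.410.

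miR-137-5p, the strand opposite the better known miR-137-3p, had 23, 14 and 2 exosome counts against 228, 1145 and 23 in fibroblasts. Exosome libraries 1 and 2, at 142 and 110 CPM, were above the fibroblasts, at 36.9, 46.0 and 11.9 CPM, but the unnumbered exosome library, at 38.8 CPM and 2 reads, was not. The difference was 3.24-fold (log2 1.70, SE 0.61, edgeR adjusted p = 0.020).

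Its call was lost without each of 4 single libraries, with log2 values of 1.14 and 1.53 without exosome library 1 and 2 and 1.81 and 1.37 without fibroblast library 1 and 4. The adjusted p was 0.337 and 0.118 without exosome library 1 and 2, and 0.059 and 0.089 without fibroblast library 1 and 4, while it was 0.0059 without the unnumbered exosome library. With total counts it was 0.442, with library sizes from all reads 0.370 and with no filter 0.058, in a range from 0.0013 to 0.442.

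**Figure D2:**
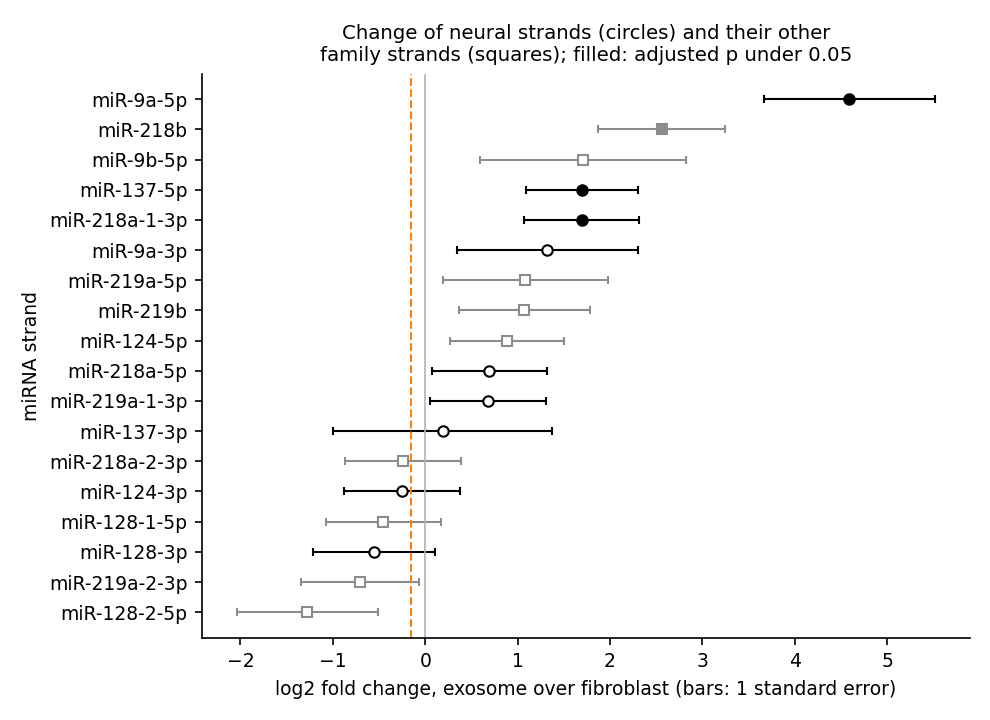
Log2 fold change, exosome over fibroblast, of the 9 strands (circles) and of 9 other strands of the same families (squares); bars are 1 standard error, filled symbols passed the test, and the dashed line is the median over all miRNAs, -0.15. miR-9a-5p stands at 4.59 and miR-218b at 2.56, and miR-128-2-5p is the lowest at -1.28.

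The strands known as the main brain products of 4 families did not pass the test. miR-124-3p, which represses non-neuronal transcripts in neurons, had 22, 16 and 7 exosome counts and 777, 6033 and 199 fibroblast counts. Its CPM was 136, 125 and 136 in exosomes, inside the fibroblast values of 126, 243 and 103, with fibroblast library 2 the highest of the 6. The log2 fold change was -0.25 (SE 0.62, edgeR adjusted p = 0.806).

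miR-128-3p, a brain-enriched miRNA with detectable levels in many tissues, had the highest mean CPM of the 9 in fibroblasts, with 2419, 4569 and 760 counts against 30, 25 and 15 in exosomes. In fibroblast library 2 it lay below miR-124-3p (6033 counts) and miR-219a-1-3p (4573 counts). Its fibroblast CPM of 392, 184 and 393 and its exosome CPM of 186, 196 and 291 overlapped. The log2 fold change was -0.55 (SE 0.66, edgeR adjusted p = 0.585).

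miR-218a-5p, the strand shared by the Slit2 and Slit3 hairpins, had 9, 12 and 17 exosome counts and 889, 1767 and 101 fibroblast counts. Its CPM was 55.7, 94.0 and 330 in exosomes and 144, 71.0 and 52.3 in fibroblasts, so that only the unnumbered exosome library exceeded all fibroblast libraries. The log2 fold change of 0.69 (SE 0.62, edgeR adjusted p = 0.444) turned to -0.30 without that library.

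miR-137-3p had 2, 1 and 1 exosome counts and 91, 275 and 10 fibroblast counts, and with miR-9a-3p was the scarcest of the 9. At 7.84 to 19.4 CPM in exosomes and 5.17 to 14.7 CPM in fibroblasts the groups overlapped. Its exosome level rests on 4 reads in all, and a difference was not detectable at this depth (log2 0.19, SE 1.19, edgeR adjusted p = 0.921).

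miR-219a-1-3p, a strand of the family known from oligodendrocytes, had nearly the same exosome count in each library, 24, 26 and 24, and 924, 4573 and 303 counts in fibroblasts. Its fibroblast level varied little, at 150, 184 and 157 CPM, while its exosome level was 149, 204 and 466 CPM. The exosome counts hardly differed, so that the spread of these CPM is that of the library sizes after TMM. The log2 fold change was 0.68 (SE 0.63, edgeR adjusted p = 0.455), and it was -0.0093 with total counts.

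**Figure D3:**
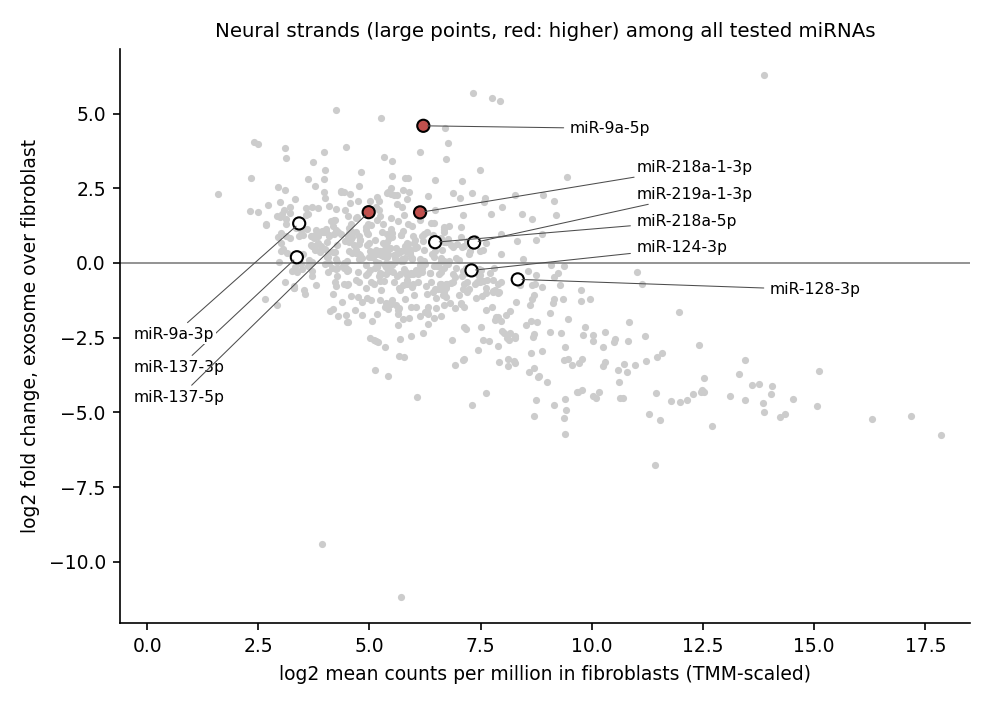
Log2 fold change, exosome over fibroblast, against the log2 mean CPM in fibroblasts for the 698 tested miRNAs (grey), with the 9 strands as large labelled points, red where called higher. miR-9a-5p, at a log2 fold change of 4.59, lies near the upper edge, and the other 8 lie inside the cloud.

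In order of mean exosome CPM, miR-9a-5p led at 1793 ± 1809, followed by miR-219a-1-3p at 273 ± 169, miR-218a-1-3p at 233 ± 74.9, miR-128-3p at 224 ± 58.1, miR-218a-5p at 160 ± 148, miR-124-3p at 132 ± 6.16 and miR-137-5p at 97.0 ± 53.0 (SD, n = 3 each). miR-9a-3p, at 31.9 ± 26.0, and miR-137-3p, at 13.2 ± 5.83, came last (SD, n = 3 each). From miR-219a-1-3p to miR-137-5p each neighbour differed from the next by less than the larger of their SDs. In fibroblasts the order began with miR-128-3p at 323 ± 121, miR-219a-1-3p at 163 ± 18.0 and miR-124-3p at 157 ± 74.8, with miR-9a-5p further down at 74.1 ± 34.4 (SD, n = 3 each). Its level there lay within an SD of those of miR-218a-5p, at 89.1 ± 48.5, and miR-218a-1-3p, at 70.5 ± 40.4 (SD, n = 3 each). miR-137-5p, at 31.6 ± 17.7, miR-9a-3p, at 10.7 ± 3.59, and miR-137-3p, at 10.3 ± 4.83, were the scarcest there (SD, n = 3 each).

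Summed, the 9 strands held 256, 224 and 285 counts in exosomes, or 0.217% ± 0.0210 of all counts, and 0.113% ± 0.0490 in fibroblasts (SD, n = 3 each). Without miR-873-3p in the total these shares were 1.79% ± 0.539 and 0.115% ± 0.0485. miR-9a-5p alone made up 46.5%, 43.3% and 70.2% of the 9 strands' exosome counts but 5.38%, 6.23% and 12.6% of their fibroblast counts. Over all counts, the other 8 strands held 0.114%, 0.112% and 0.0714% in exosomes and 0.0954%, 0.157% and 0.0628% in fibroblasts, ranges that overlapped. Without miR-873-3p they held 0.754%, 0.886% and 0.719% of exosome counts and 0.0966%, 0.158% and 0.0643% of fibroblast counts. Leaving out miR-873-3p raises the exosome share of every other miRNA alike, so that the gap between the groups in these shares is not particular to the neural strands. In bulk libraries, fewer cells or vesicles with a miRNA and less of it in each cannot be told apart.

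The balance of the strands within a family does not depend on the scaling between libraries. The 5p strand gave 99.2% (119 of 120 reads), 96.0% (97 of 101) and 98.5% (200 of 203) of the miR-9a reads in exosomes. In fibroblasts it gave 89.4% (346 of 387), 81.4% (1305 of 1604) and 89.4% (220 of 246). Every exosome share was above every fibroblast share, a mean of 97.9% ± 1.65 against 86.7% ± 4.65 (SD, n = 3 each). The exact two-sided permutation p was 0.1, the smallest that 3 against 3 libraries can give, and 0.3 after adjustment over the 3 families tested.

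For miR-137 the 5p strand gave 92.0%, 93.3% and 66.7% of 25, 15 and 3 exosome reads and 71.5%, 80.6% and 69.7% of 319, 1420 and 33 fibroblast reads (exact permutation p = 0.4, adjusted 0.6). The 5p strand was thus the more frequent in each library, although miR-137-3p is the strand described in brain. The interval of the unnumbered exosome library, 9.43% to 99.2%, covered the values of all others.

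miR-218a-5p gave 19.1%, 24.0% and 50.0% of the exosome reads of its family and 47.2%, 41.0% and 24.3% of the fibroblast reads, counted against miR-218a-1-3p and miR-218a-2-3p together (exact permutation p = 0.7, adjusted 0.7). The unnumbered exosome library was the highest of the 6 and exosome library 1 the lowest.

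The other 3 families were described only. miR-124-3p held fewer reads than miR-124-5p in 4 of 6 libraries: the 5p share was 72.5%, 61.9% and 53.3% in exosomes and 45.7%, 33.7% and 62.2% in fibroblasts.
The 5p strands of miR-128 gave 77.9%, 71.9% and 48.3% of exosome reads and 70.4%, 81.5% and 77.8% of fibroblast reads, most of them miR-128-2-5p. Of the miR-219a reads, miR-219a-5p, the strand described in oligodendrocytes, gave only 13.9%, 6.98% and 5.71% in exosomes and 6.13%, 4.59% and 1.76% in fibroblasts.

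**Figure D4:**
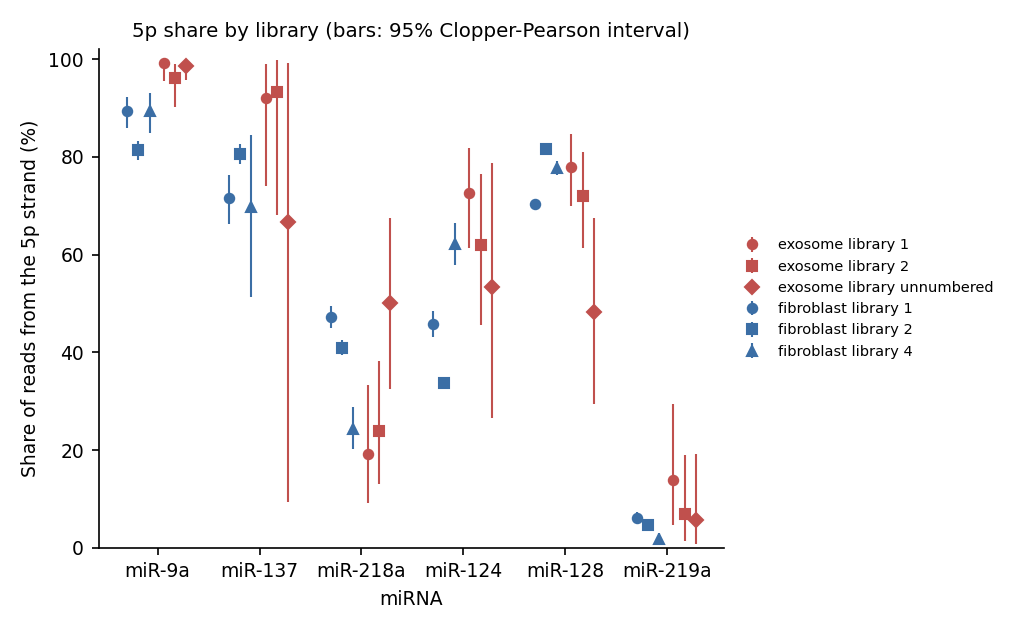
Share of a family's reads that came from the 5p strand, in percent, by library; bars are 95% Clopper-Pearson intervals, and colour and shape give group and library number. The miR-9a shares of the exosomes, 96.0% to 99.2%, lie above those of the fibroblasts, 81.4% to 89.4%, while the groups overlap for the other 5 families.

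Of the 10 other listed strands and copies of these families, 9 were tested, 1 was higher, 0 were lower and 8 did not pass, with a median log2 fold change of 0.88. The called shares were 11.1% higher and 0% lower, beside 11.3% and 18.6% over all tested miRNAs. The one called higher was miR-218b, whose letters are the reverse complement of a stretch of 20 bases of miR-218a-5p on the opposite strand of the Slit2 hairpin. It had 15, 10 and 3 exosome counts and 36, 279 and 47 fibroblast counts (log2 2.56, SE 0.69, edgeR adjusted p = 0.0015), and was not called in 4 of 14 other settings, among them those without exosome library 1 (0.059) and without fibroblast library 1 (0.058), in a range from 1.8e-05 to 0.145. In fibroblast library 1 miR-218b lay below the filter's cutoff, so that it entered the test through the exosomes, the group where it is high. Whether the counting used strand is not given in the sources used here, so reads of such opposite-strand entries may not be told apart from those of their partners.

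The same holds for miR-9b-3p and miR-9b-5p, opposite the miR-9a hairpins, and miR-219b, opposite a miR-219a hairpin. miR-9b-3p, of which 18 bases in a row are the reverse complement of miR-9a-5p, had 17, 131 and 21 counts in fibroblasts and 0 in each exosome library. A count of 0 allows an exosome share of up to 0.002495%, 0.002652% and 0.002521% (3 counts of the total), and the fibroblast shares of 0.000267% to 0.00105% were below this. miR-9b-3p did not pass the count filter, and no fold is given. miR-9b-5p, with 4, 3 and 0 exosome counts, did not pass the test (log2 1.71, SE 1.11, edgeR adjusted p = 0.266).

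Other miRNAs known from neural cells were listed by name, with earlier results of these data known. Of 44 tested strands, 5 were higher, 3 were lower and 36 did not pass, and their median log2 value was 0.16. The called shares were 11.4% higher and 6.82% lower, beside 11.3% and 18.6% over all tested miRNAs. miR-138-5p, a brain-enriched miRNA of dendrites, had 331, 157 and 10 exosome counts and 324, 2243 and 334 fibroblast counts (log2 3.48, SE 0.82, edgeR adjusted p = 0.00027; range over other settings 1.8e-09 to 0.010). Its log2 value was 2.58 without exosome library 1 and 5.25 without the top 5 miRNAs in the library size. Its exosome counts fell in another order than those of miR-9a-5p, with the unnumbered library the lowest.

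rno-miR-7a-5p, known from neurons and endocrine cells, had 9, 4 and 3 exosome and 63, 293 and 7 fibroblast counts (log2 2.43, SE 0.84, edgeR adjusted p = 0.016), and miR-138-1-3p had 12, 8 and 3 against 77, 532 and 45 (3.49-fold, SE of the log2 value 0.69, edgeR adjusted p = 0.033). The first was not called in 4 of 11 other settings, among them those without exosome library 1 (0.177) and with the replicate block (0.071), and the second in 6 of 11, among them those without exosome library 1 (0.241) and 2 (0.132). Their ranges were 0.0031 to 0.369 and 0.0036 to 0.477. In fibroblast library 4 miR-7a-5p lay below the filter's cutoff, so that it entered the test through the exosomes, the group where it is high.

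miR-487b-3p, miR-330-3p and miR-134-3p were lower in exosomes. miR-487b-3p, of the imprinted Dlk1-Dio3 cluster, had 2, 2 and 0 exosome counts and 1017, 2419 and 199 fibroblast counts (log2 -3.41, SE 0.82, edgeR adjusted p = 0.00041). miR-330-3p had 11, 5 and 6 against 2191, 10214 and 2345 (log2 -3.24, SE 0.79, edgeR adjusted p = 0.00044). The calls of both were lost when library sizes were summed without the top 5 miRNAs (0.198 and 0.072), with lowest values over other settings of 3.1e-05 and 1.1e-06. miR-134-3p, also of the Dlk1-Dio3 cluster, was not called in 8 of 15 other settings and had a log2 fold change of -1.74 (SE 0.67, edgeR adjusted p = 0.033), which turned to 0.03 in the setting named above. It lost its call without exosome library 1 (0.098), exosome library 2 (0.135) and fibroblast library 4 (0.085), and with the replicate block (0.099), in a range from 0.0018 to 0.980.

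Marker miRNAs of other cell types were read beside these strands, and their part in the result was not tested. The endothelial strand miR-126a-3p (113, 91 and 98 exosome counts; log2 4.85, SE 0.85, edgeR adjusted p = 1.3e-06) and the red cell miRNA miR-451-5p (3, 10 and 11 counts; log2 2.82, SE 0.70, edgeR adjusted p = 0.00052) were higher in exosomes as well. The call of miR-451-5p was lost in 4 of 14 other settings, among them those without the unnumbered exosome library (0.053) and with the replicate block (0.163), in a range from 0.00020 to 0.246. That of miR-126a-3p was lost with the reads behind the authors' normalized table, where its log2 fold change was 1.17 (0.211; lowest over other settings 1.1e-12). The 2 endothelial markers held 0.639% to 0.973% of exosome and 0.0101% to 0.0156% of fibroblast counts without miR-873-3p, and the 5 blood markers 0.143% to 0.181% and 0.00584% to 0.0303%. Leaving out miR-873-3p raises the exosome shares of both lists, and the blood markers had only 20 to 26 counts in an exosome library. Of the 5 blood markers 1 passed the test, and of the 2 endothelial markers 1, beside 11.3% called higher over all tested miRNAs. Only 2 of the 5 blood markers had a fold change above 0, with a median log2 value of -0.011. Besides miR-451-5p, miR-223-3p stood at 1.45, miR-142-3p at -0.011, miR-142-5p at -0.72 and miR-144-3p at -1.15. In these lists 0 markers were at 0 counts in all exosome libraries. All 416 exosome counts of miR-9a-5p were also among the reads behind the normalized table.

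Of the fibroblast and mesenchymal markers 8 of 8 were lower in exosomes, and their median log2 value was -5.14. Over all tested miRNAs 18.6% were called lower and 11.3% higher. Among these markers, miR-143-3p, miR-22-3p and miR-21-5p also belonged to the 5 most abundant miRNAs. Without exosome library 1 the calls of miR-22-3p, miR-143-3p, miR-21-5p and miR-199a-3p were lost (highest adjusted p over all settings 0.190, 0.182, 0.126 and 0.054), those of the first 3 also without exosome library 2. miR-22-3p and miR-143-3p lost it with no filter as well (0.067 and 0.066), and miR-22-3p with the replicate block (0.058). Of the 4 tested cardiomyocyte markers miR-499-5p was lower (edgeR adjusted p = 0.011; lost in 4 of 11 other settings, among them those without exosome library 1 and 2; range 0.00052 to 0.329) and 3 did not pass, and of the 3 liver and serum markers 1 was lower and 2 did not pass.

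The direction of a fold change is relative to the scaling between libraries. Over all miRNAs tested, the median log2 value moved from -0.15 to -0.57 with total counts, -0.96 with library sizes from all reads and 1.34 without the top 5 miRNAs in the library size. Higher and lower calls over all miRNAs went from 79 and 130 to 43 and 121, 35 and 195, and 185 and 60. Set against that median, miR-9a-5p stood at 4.74 as reported and at 4.40, 4.35 and 4.60 in these settings. miR-218a-1-3p stood at 1.84 and at 1.94, 1.72 and 1.99, and miR-137-5p at 1.85 and at 1.84, 1.86 and 1.78. The fold change was above 0 for 7 of the 9 strands as reported and for 5, 4 and 9 in the other scalings.

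**Figure D5:**
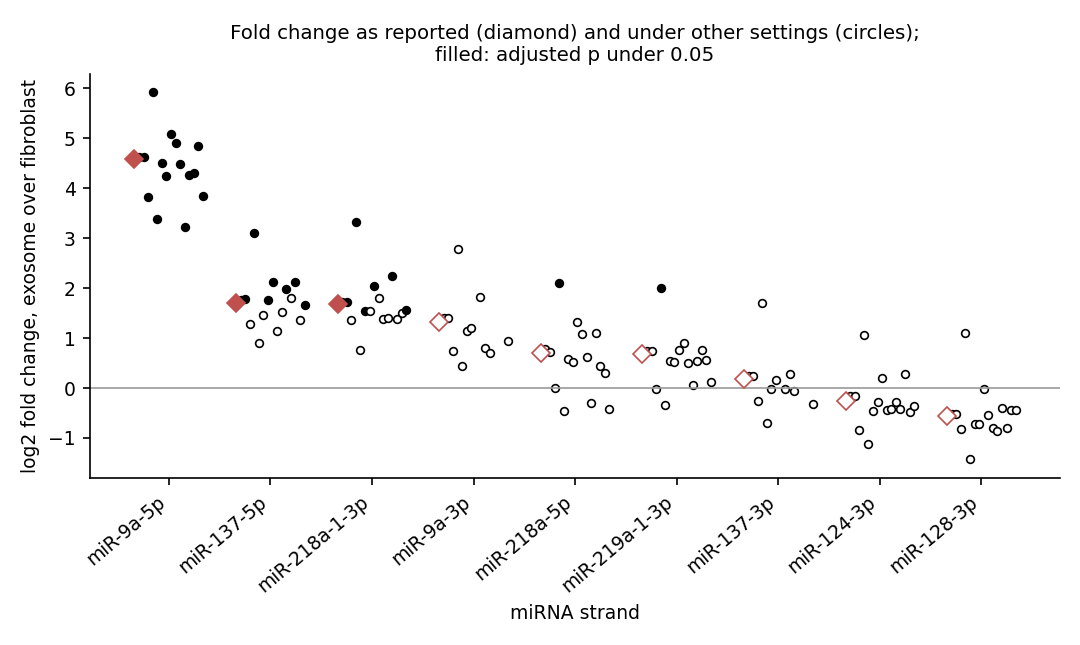
Log2 fold change, exosome over fibroblast, of each strand as reported (red diamonds) and under up to 15 other settings (circles); filled symbols passed the test. miR-9a-5p is filled throughout, between 3.22 and 5.93, whereas miR-218a-1-3p and miR-137-5p are filled in 7 and 8 of 15 other settings.

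The authors' deposited table gave log2 values of fibroblast over exosome mean normalized counts with DESeq p-values. For miR-9a-5p the authors' deposited table listed -4.65, with mean normalized counts of 1517 in exosomes and 60.6 in fibroblasts, a p-value of 0.558 and an adjusted p of 1. In the authors' deposited table miR-137-5p stood at -1.73 with an adjusted p of 0.699 and miR-218a-1-3p at -1.74 with an adjusted p of 1. The 9 strands had the same direction there as in the edgeR fit, and none had an adjusted p under 0.05 in the authors' deposited table, whose smallest unadjusted p for them was 0.131.

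By Euclidean distance of log2(TMM-scaled CPM + 1), centred over the 6 libraries, the miRNAs most like miR-9a-5p were miR-3568 (distance 1.14), miR-99a-3p (1.14) and miR-379-5p (1.39), where the median distance to all others was 6.45. miR-379-5p had 58, 61 and 62 exosome and 107, 503 and 38 fibroblast counts, nearly constant in exosomes, as did miR-99a-3p with 83, 87 and 82 exosome counts. Those most like miR-218a-5p were miR-3580-3p (distance 0.80), miR-96-5p (0.90) and miR-363-3p (0.98), with 2 to 6 exosome counts in a library and a median distance of 3.54.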

How the data were processed

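The authors deposited raw counts of reads per mature miRNA, and these counts entered every reported test. The deposited normalized table is a signal: each library was divided by its own size factor, and 100% of its values came back to within 0.05 of whole reads; these reads served as an alternative that called 68 miRNAs higher and 144 lower. Per the file headers, the third deposited table lists the authors' own fold change (a ratio), its log2 value and p-values. Per the submitters' processing notes, CASAVA 1.8.2, cutadapt 1.2.1, DESeq and rn5 were used; which aligner and counting rule is not given in the sources used here. The row of reads that name no miRNA, 63.1% to 84.4% of a library, was left out except where stated.

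The test was run in R 4.3.3 with edgeR 4.0.16: filterByExpr (minimum count 10, minimum total 15), TMM, the two-sided quasi-likelihood test on group over 698 of 728 miRNAs, and Benjamini-Hochberg adjustment. The unadjusted p was under 0.05 for 263 miRNAs. The standard error was derived from the F statistic (absolute log2 value over the root of F). On simulated counts with 193 miRNAs changed by 3 on the log2 scale among 672, 88.6% were recovered. All miRNAs were simulated with the same spread, and only those that passed the filter were counted. Changes as small as those fitted for the strands other than miR-9a-5p were not simulated. DESeq2 1.42.0 and other scalings, filters and left-out libraries were alternatives.

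The strands and lists were chosen with earlier results of these data known. Named were the 9 strands, their family strands, the 3 other neural miRNAs with the largest called change in each direction, markers and the 3 nearest miRNAs of 2 strands; miRNAs named beyond these were chosen after their values were seen. Column names gave each library's sample, except 1 exosome column without a number.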

Additional observations from a re-analysis of the deposited data

How the results depend on the processing

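Of the 9 strands, 3 were called as reported and 1 with total counts, 5 with library sizes summed without the top 5 miRNAs, 1 with library sizes from all reads of the normalized table, and 1 to 2 when a library was left out. miR-9a-5p was among them each time. Higher calls over all miRNAs moved the same way, from 79 of 698 tested to 43 of 698 with total counts. They were 185 of 694 without the top 5 and 35 of 686 with library sizes from all reads. The count of all called miRNAs, 209, was 134 to 214 when a library was left out, lowest without exosome library 2; without a fibroblast library the filter left 359 to 414 miRNAs instead of 698, and miR-9a-3p and miR-137-3p were not tested. The members' share of exosome counts, 0.217%, became 1.79% with the total taken without miR-873-3p. Among strands that did not pass, the sign turned for miR-124-3p (1.07 without the top 5, 0.20 with fibroblast libraries thinned, -0.48 to 0.27 with a library left out, highest without fibroblast library 2) and miR-128-3p (1.10 without the top 5). It also turned for miR-137-3p (-0.26 with total counts, -0.70 with library sizes from all reads, -0.028 with no filter, -0.050 to 0.27 with a library left out, below 0 without exosome library 1 (-0.012) and the unnumbered one, -0.31 with the block), miR-218a-5p (-0.45 with library sizes from all reads, -0.30 to 1.11 with a library left out, below 0 without the unnumbered exosome one, -0.42 with the block) and miR-219a-1-3p (-0.0093 with total counts, -0.35 with library sizes from all reads); the cause was not tested. With a library left out, the 5p share difference in percentage points was 8.49 to 12.5 for miR-9a (11.2 as reported), 5.40 to 18.7 for miR-137 (10.1; lowest without exosome library 2, highest without the unnumbered one) and -15.9 to -0.51 for miR-218a (-6.46; lowest without the unnumbered exosome library, nearest to 0 without exosome library 1).

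The groups share the numbers 1 and 2, which no label says pair the libraries. With the replicate number as a block over these 4 libraries, 100 miRNAs were higher and 142 lower. In that fit 3 of the 9 strands were called, miR-9a-5p, miR-218a-1-3p and miR-137-5p. A block over 4 libraries leaves little replication to estimate the spread from. Deviations from the group means correlated at -0.13 for the libraries numbered 1 and 0.12 for those numbered 2. Across unlike numbers the values were 0.155 (fibroblast library 2 with exosome library 1) and -0.0515 (fibroblast library 1 with exosome library 2). Exosome depth limits these values, since miR-137-3p, miR-9a-3p, miR-218a-5p and miR-137-5p had 4, 8, 38 and 39 exosome reads in all.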

Other observations

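Set against miR-873-3p, which took most exosome reads, miR-9a-5p had 1.17, 0.982 and 1.87 reads per 1000 reads of miR-873-3p in exosome libraries 1, 2 and unnumbered, and 4.32, 26.7 and 3.80 in fibroblast libraries 1, 2 and 4. For miR-219a-1-3p, whose exosome counts were nearly constant, the exosome ratios were 0.235, 0.263 and 0.224 per 1000, and the fibroblast ratios 11.5, 93.4 and 5.23. miR-218a-1-3p had 0.255, 0.294 and 0.149 per 1000 in exosomes and miR-137-5p 0.225, 0.142 and 0.0187. The raw counts of miR-873-3p itself lay between 98791 and 107169 in exosomes.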
